A study of Mus musculus with 24 samples.

Results

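Arrays of serum exosome RNA from male BALB/c mice gave different miRNA profiles after 9 days of toosendanin (TSN) and after 9 days of vehicle. TSN is a triterpenoid of Melia trees that injures the liver at high doses. The arms lay on different slides with different scan times, so the arm cannot be told apart from slide and scan. The comparison takes the 4 samples labelled as 9 days of TSN, dosed at 80 mg/kg, and the 4 samples labelled as 9 days of control, which are 8 of the 24 samples of a series that also covers days 3 and 21 with 4 samples per arm and day. All mice were of the same sex and strain, and serum was collected 24 hours after the last dose. The labels name serum exosomes as the source, give no age and leave unsaid if a sample came from 1 mouse or from several. The p-values therefore measure only how far these samples spread, which may be technical. RNA was labelled with Cy3 and read on one-colour mouse arrays that hold 1881 miRNAs. Of these, 434 were well above background on every array of at least 1 of the 6 groups, varied above the floor set below, and were tested. Levels are log2 of the array signal divided by that array's own 75th percentile, called scaled values. A change is the TSN mean minus the control mean on that scale, n = 4 per group, so a rise or a fall is always relative to the array's 75th percentile.

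A miRNA is cut from a hairpin that can yield a 5p and a 3p strand, and it finds its targets mainly through the seed, the bases 2 to 8 of the mature strand. miRNAs with the same seed form a family and can repress overlapping sets of mRNAs, while hairpins encoded side by side can be transcribed together. Exosomes are small vesicles that cells release into blood with part of their miRNA, and some miRNAs are so enriched in 1 cell type, such as miR-122-5p in hepatocytes, miR-451a in red cells or the miR-1 and miR-133 families in striated muscle, that they serve as markers of it.

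The mature sequences of the miRNAs that carry the comparison are shown with the seed in capitals, 5′ to 3′, from RefSeq with its GRCm38.p6 table, which held 369 of the 434 tested miRNAs. The series is titled after miR-106b-5p, and the first set gives it with the 4 tested miRNAs that share its seed, all of which rose.
miR-106b-5p: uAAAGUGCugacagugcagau
miR-17-5p: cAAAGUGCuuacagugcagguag
miR-20a-5p: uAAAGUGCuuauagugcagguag
miR-20b-5p: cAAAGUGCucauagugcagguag
miR-93-5p: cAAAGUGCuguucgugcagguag

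The second set holds 2 cluster relatives of the first with another seed, the 3 members of the miR-148/152 seed family, both strands of the red cell hairpin miR-144, and the pair miR-15a-5p and miR-16-5p, which share a seed and differed in their change.
miR-25-3p: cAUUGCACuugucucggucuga
miR-92a-3p: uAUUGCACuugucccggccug
miR-148a-3p: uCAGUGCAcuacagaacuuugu
miR-148b-3p: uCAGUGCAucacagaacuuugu
miR-152-3p: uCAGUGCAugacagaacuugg
miR-144-3p: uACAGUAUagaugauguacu
miR-144-5p: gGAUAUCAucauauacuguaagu
miR-15a-5p: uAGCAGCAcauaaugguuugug
miR-16-5p: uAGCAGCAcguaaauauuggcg

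The third set holds the pair of neighbours that fell together, the leukocyte miRNA with the largest fall of its list, and 3 of the miRNAs with the lowest changes.
miR-222-3p: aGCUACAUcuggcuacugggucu
miR-221-3p: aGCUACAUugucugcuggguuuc
miR-142a-3p: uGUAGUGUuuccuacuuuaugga
miR-883a-5p: uGCUGAGAgaaguagcaguuac
miR-882: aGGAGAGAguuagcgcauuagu
miR-7080-3p: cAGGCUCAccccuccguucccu

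The TSN arrays were brighter than the control arrays. On the control arrays 213, 185, 299 and 183 miRNAs were well above background, against 436, 439, 445 and 424 on the TSN arrays (means 220 ± 54.4 and 436 ± 8.83, SD). The unscaled 75th percentile was 10.3 times higher in the TSN group (1524 ± 155 against 148 ± 97.8, SD), or 3.56 as the difference of mean log2 values. The labelling spike-ins, RNAs added before dye coupling, were 3.24 times higher, and the share of spots marked as outliers was 3.97% against 2.69%. Each of these 4 measures had an exact two-sided permutation p of 0.0286, the smallest that 4 against 4 arrays can give, and an adjusted p of 0.0429 over 6 measures. The hybridisation spike-ins (ratio 0.994) and the local background (ratio 1.01) had an exact permutation p of 0.886 and 0.857. The 4 TSN arrays lay on a slide with the TSN day 21 arrays and the 4 control arrays on another slide with the control day 3 arrays, with different scan times in the headers, so the arm cannot be told apart from slide and scan. Within a group, the scaled values of any 2 arrays correlated across miRNAs at r of 0.976 to 0.99 in TSN and 0.974 to 0.986 in control.

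**Figure D1:**
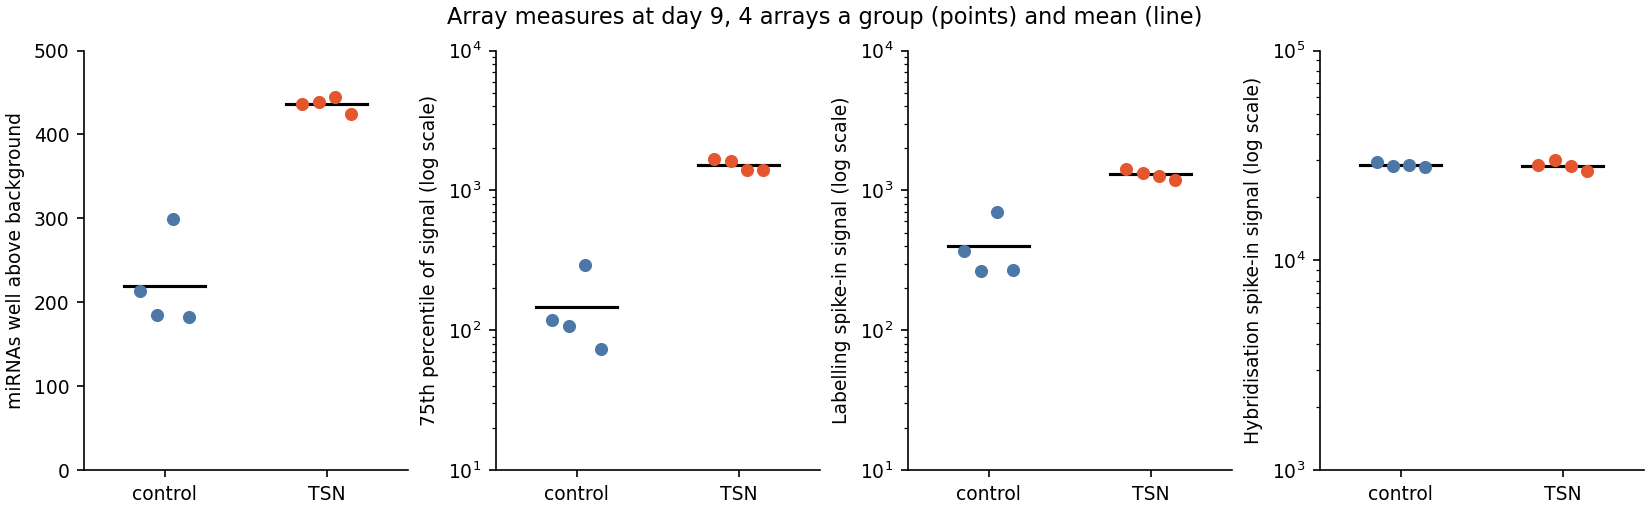
Number of miRNAs well above background, 75th percentile of the unscaled signal, and signal of the labelling and of the hybridisation spike-ins on each day 9 array (points; the line is the mean of 4; the last 3 panels have a log axis). The TSN arrays lie above all control arrays in the first 3 panels and overlap them in the fourth, and control replicate 3 is the brightest control array.

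After scaling, 121 of the 434 tested miRNAs were higher in TSN (27.9%) and 150 were lower (34.6%) at a limma adjusted p below 0.05, which makes 271 called (62.4%) and 163 not. For 161 miRNAs, here called measured, all 8 arrays were well above background, and of these 38 were higher (23.6%) and 74 lower (46%), or 69.6% in either direction, and the values of the 2 groups did not overlap for 98 (60.9%). Among the 121, 40 were not well above background on any control array, and for 5 of these a lower bound above 1-fold could be given. Of those called lower, 59 were well above background on all 4 TSN arrays and on 0 to 3 control arrays. For 18 of these no control array was well above background, so neither the direction nor the size of their change is measured. The split of the calls followed the scaling. With no scaling 388 were higher (89.4%) and 5 lower (1.15%), and 70 of the 74 measured miRNAs called lower then had a change above 0. The higher and lower calls numbered 243 and 29 with the 75th percentile over all probes, 227 and 76 with quantile normalization, 320 and 23 with the labelling spike-ins, 391 and 6 with the hybridisation spike-ins, 248 and 77 in the authors' values, 115 and 91 with the software's total gene signal, and 30 and 365 with normexp background correction. Dividing an array by any 1 number leaves the differences between the changes of measured miRNAs above the floor as they are, so the results below are read as positions relative to other miRNAs.

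**Figure D2:**
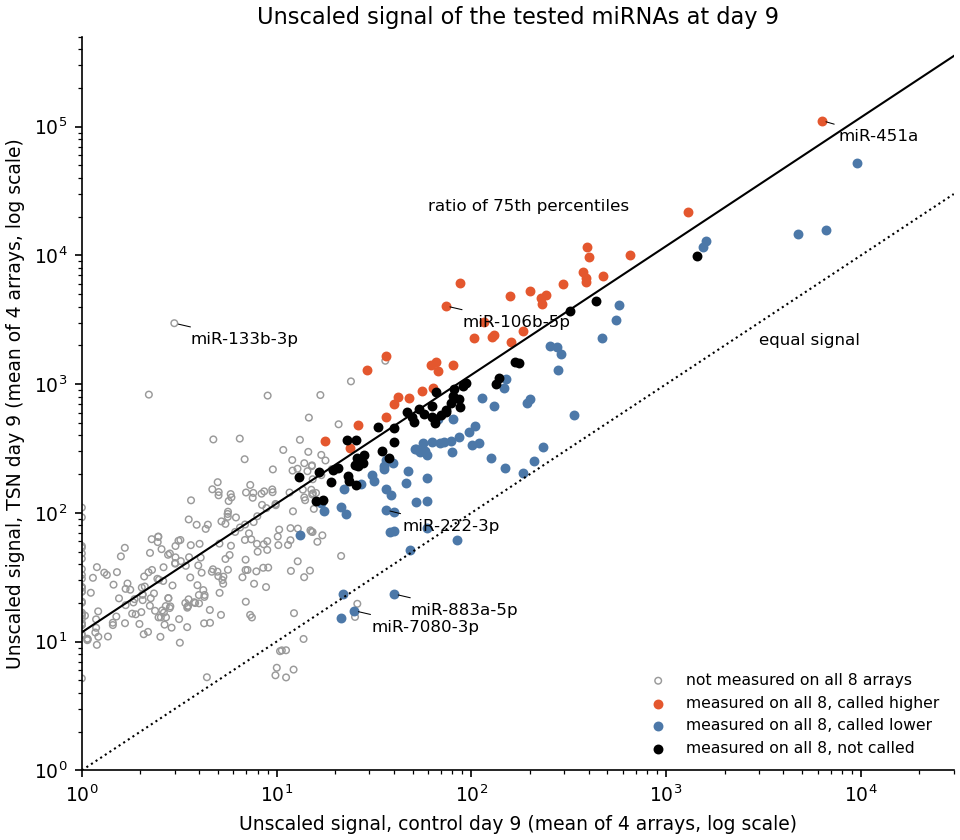
Mean unscaled signal of each tested miRNA on the 4 TSN arrays against that on the 4 control arrays at day 9, both on log axes. The solid line is the ratio of the arrays' 75th percentiles (geometric means) and the dotted line is equal signal; miR-106b-5p and miR-133b-3p lie above the solid line, and miR-883a-5p and miR-7080-3p lie below the dotted one.

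miR-106b-5p rose, and so did the other tested members of its cluster. Mir106b, Mir93 and Mir25 neighbour each other within the gene Mcm7 in GRCm38.p6. The scaled values of miR-106b-5p on the control arrays were -1.37, -0.48, -1.10 and -0.99, and on the TSN arrays 1.51, 1.59, 1.13 and 1.31. Every TSN array lay above every control array, and the lowest TSN value stood further from the highest control value than the control arrays stood from each other. The change was 2.37 (SE 0.189, limma adjusted p = 1.73e-09), the second highest among measured miRNAs whose groups did not overlap. The unscaled change was 5.93, and its 2 probes gave 2.37 and 2.45. Set relative to the shift of the measured miRNAs' median, the change ranged from 1.80 with quantile normalization to 2.42 with total gene signal over the alternatives that kept all arrays, and it passed the threshold under each.

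miR-25-3p, which has the seed of the miR-92 family, was at -0.86, -0.021, -0.25 and -0.53 in control and at 1.05, 0.98, 0.90 and 1.03 in TSN. The TSN arrays were close to each other and all above the control arrays. It rose by 1.41 (SE 0.215, limma adjusted p = 9.49e-06). miR-93-5p, which has the seed of miR-106b-5p, was at -1.46, -0.63, -1.31 and -1.09 in control and at -0.006, 0.064, -0.25 and 0 in TSN. Its groups did not overlap either. It rose by 1.08 (SE 0.182, adjusted p = 3.22e-05), but passed the threshold neither with no scaling nor with the hybridisation spike-ins when set relative to the median miRNA (adjusted p = 0.0583 and 0.0594). The 3p strands of miR-106b and miR-93 and the 5p strand of miR-25 were not tested.

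The miR-17 superfamily holds this cluster, the miR-17 to miR-92 cluster and its copy on the X chromosome, with 13 members on the array. Of 10 tested members 8 rose, none fell and 2 did not pass, beside 27.9% of all tested miRNAs that rose and 34.6% that fell. The median change was 0.88 beside -0.051 over all tested miRNAs. Of its 8 measured members 6 rose and none fell, beside 23.6% and 46% of all measured miRNAs. All 5 tested carriers of the seed of miR-106b-5p rose, with a median of 1.08. miR-17-5p was at -4.88, -5.17, -4.85 and -4.70 in control, where 1 of 4 arrays was well above background, and between -3.47 and -2.92 in TSN. The groups lay well apart at a low level, and the change was 1.73 (SE 0.147, limma adjusted p = 3.11e-09), which turned to -0.76 with normexp. miR-92a-3p was at 0.52, 0.73, 0.82 and 0.47 in control and at 1.77, 1.96, 1.30 and 1.56 in TSN, again without overlap. It rose by 1.01 (SE 0.182, adjusted p = 5.73e-05).

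miR-20a-5p rose by 0.75, miR-20b-5p by 0.67 and miR-18a-5p by 0.63, the last with 1 control array well above background and turning to -1.05 with normexp and -1.04 with total gene signal. Quantile normalization took miR-92a-3p (0.34), miR-20a-5p (0.29) and miR-20b-5p (0.34) below the threshold. The 2 members that did not pass were miR-19a-3p at -0.38 (adjusted p = 0.103) and miR-19b-3p at -0.39 (adjusted p = 0.0823), which sit in the same clusters and carry a seed of their own. Their values overlapped between the groups. Within the miR-17 hairpin itself, the 3p strand fell by 0.90 while the 5p strand rose, though miR-17-3p was well above background on 1 control array and stood at 0.60 with quantile normalization.

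**Figure D3:**
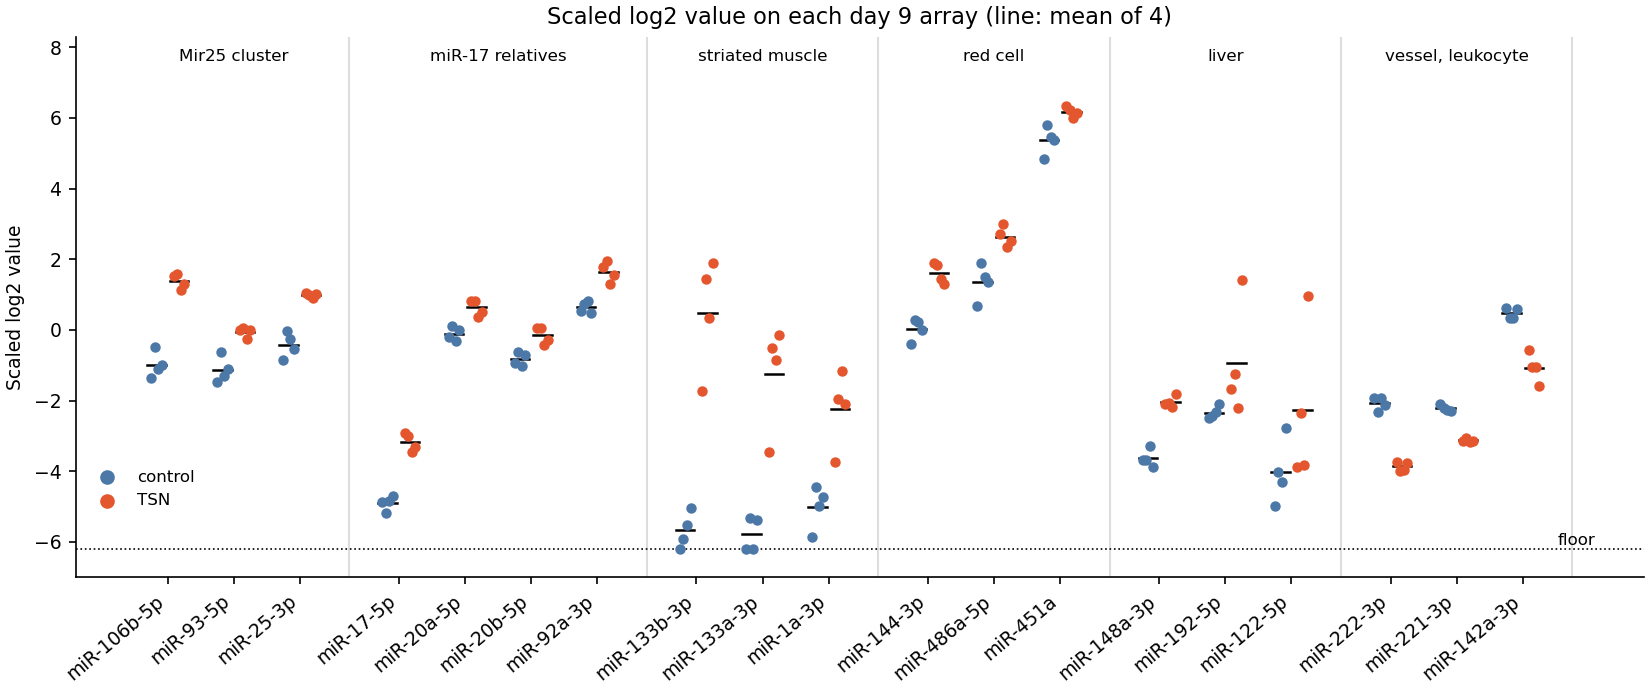
Scaled log2 value of lead miRNAs on each of the 4 control and 4 TSN arrays at day 9 (points in the order of the replicate number; the line is the mean of 4; the dotted line is the floor). The 3 miRNAs of the Mir25 cluster separate the groups, TSN replicate 1 is the lowest TSN array in all 3 muscle miRNAs, and TSN replicate 4 stands above the other TSN arrays in miR-192-5p and miR-122-5p.

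The largest rises fell on miRNAs of striated muscle. miR-133b-3p, which acts in muscle differentiation, was at -6.21, -5.93, -5.52 and -5.05 on the control arrays, none of them well above background, and at -1.71, 1.46, 0.33 and 1.90 on the TSN arrays. Unscaled, its signal was 515, 4449, 1758 and 5184 in TSN and at most 6.35 in control. The rise was at least 21.1-fold (limma adjusted p = 6.37e-09, with a fitted change of 6.17 and an SE of 0.56), where the bound sets the TSN mean against the lowest signal well above background on each control array or the probe's own signal, whichever was higher.

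miR-133a-3p, from the paralogous hairpins, was at -6.21, -5.33, -6.21 and -5.37 in control and at -3.45, -0.52, -0.86 and -0.13 in TSN, a rise of at least 6.35-fold (adjusted p = 1.78e-07). Its sequence differs little from that of miR-133b-3p, so 1 probe may read both. miR-1a-3p, the other main muscle miRNA, was at -5.86, -4.46, -4.98 and -4.73 in control and at -3.75, -1.96, -1.17 and -2.08 in TSN. It rose by 2.77 (SE 0.421, adjusted p = 9.31e-06), with 1 control array well above background. With normexp miR-133a-3p stood at 0.99 (adjusted p = 0.0559) and miR-1a-3p at 0.022 (adjusted p = 0.964), and with total gene signal miR-1a-3p stood at 1.85 (adjusted p = 0.403), so these calls were lost there.

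In all 3 miRNAs, no TSN value was as low as a control value, and TSN replicate 1 lay more than 1 log2 unit below the other 3 TSN arrays. No other tested miRNA put that array so far below the rest. miR-378a-3p, which is also made in other tissues, had a change of 1.05 and did not pass (adjusted p = 0.0525). Of the 8 listed muscle miRNAs 4 were tested, each well above background on all 4 TSN arrays and on 0 to 2 control arrays, so they passed the filter through the group where they were high and their share of rises is not read. The summed scaled signal of the list ran from 0.162 to 0.257 in control and from 0.629 to 5.05 in TSN. The other 4, among them miR-206-3p of skeletal muscle and miR-208a-3p of heart, were well above background on none of the 8 arrays. A change in the RNA of 1 cell type and a change in the number of its vesicles cannot be told apart in serum. This holds here and for the lists below.

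Red cell miRNAs moved in both directions. miR-144-3p was at -0.40, 0.28, 0.21 and 0 in control and at 1.90, 1.84, 1.43 and 1.29 in TSN. The groups did not overlap, and it rose by 1.60 (SE 0.238, limma adjusted p = 7.51e-06). miR-486a-5p, abundant in erythroid cells and in muscle, was at 0.68, 1.90, 1.51 and 1.34 in control and at 2.71, 2.99, 2.34 and 2.53 in TSN, and rose by 1.28 (SE 0.214, adjusted p = 2.65e-05).

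miR-451a, the main miRNA of mature red cells, was at 4.83, 5.82, 5.45 and 5.37 in control and at 6.34, 6.22, 6.01 and 6.14 in TSN. The gap between the groups was narrow beside the spread of the controls, and it rose by 0.81 (SE 0.231, adjusted p = 0.00441). miR-16-5p, which red cells hold in plenty, had a change of -0.03 (adjusted p = 0.92). The passenger strands fell, miR-144-5p by 0.81 (adjusted p = 0.0212) and miR-486a-3p by 0.63 (adjusted p = 0.0145), the second with 2 control arrays well above background. Without TSN replicate 4, miR-144-5p stood at -0.65 and did not pass (adjusted p = 0.0783), and without control replicate 2, miR-486a-3p stood at -0.47 (adjusted p = 0.0704). Of the 6 tested members 3 rose, 2 fell and 1 did not pass, beside 27.9% of all tested miRNAs that rose and 34.6% that fell. Their summed scaled signal ran from 33.23 to 65.89 in control and from 75.02 to 94.63 in TSN. Most of each sum is miR-451a, so it largely repeats the result of that miRNA. Control replicate 1 was the lowest array in the 3 that rose. miR-106b-5p, miR-25-3p, miR-93-5p, miR-92a-3p and miR-15a-5p, which red cells also contain, rose on the same arrays, and the part of red cell RNA in those results was not tested.

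The miR-15/16 family split by member, with 2 of 6 tested members higher beside 27.9% of all tested miRNAs. miR-15a-5p was at 0.16, 0.97, 0.28 and 0.52 in control and at 1.83, 1.91, 1.70 and 1.75 in TSN. The TSN arrays were nearly level and above every control array, and it rose by 1.32 (SE 0.204, limma adjusted p = 1.13e-05). miR-15b-5p rose by 0.92 (SE 0.165, adjusted p = 5.65e-05), and stood at 0.25 with quantile normalization (adjusted p = 0.271). The other 4 tested members, miR-16-5p among them, lay between -0.03 and 0.092 and did not pass. miR-15a and miR-16 come from adjacent hairpins, as do miR-15b and a second copy of miR-16, and share the seed shown above.

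Among the liver miRNAs, miR-122-5p and miR-192-5p were led by a single array. miR-122-5p, the hepatocyte miRNA, was at -4.98, -4.01, -4.30 and -2.78 in control, where 2 arrays were well above background, and at -3.87, -2.34, -3.81 and 0.97 in TSN. TSN replicate 4 stood far above the other TSN arrays, which overlapped the controls, and the change of 1.75 (SE 0.774) did not pass (limma adjusted p = 0.0532). miR-192-5p, of liver and gut, was at -2.49, -2.43, -2.34 and -2.11 in control and at -1.66, -1.26, -2.20 and 1.40 in TSN. TSN replicate 3 lay within the range of the controls, and TSN replicate 4 stood apart as for miR-122-5p. It rose by 1.41 (SE 0.484, adjusted p = 0.0153), and without TSN replicate 4 stood at 0.63 and did not pass (adjusted p = 0.0536).

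Only 3 tested miRNAs lay more than 1 log2 unit above the other 3 TSN arrays on TSN replicate 4, namely miR-122-5p, miR-192-5p and miR-193a-3p. These 3 were singled out after their values were seen. miR-193a-3p was at -6.21, -6.21 and -6.20 on the other TSN arrays and at -4.66 on this one. miR-148a-3p, a liver-enriched miRNA, was at -3.69, -3.68, -3.27 and -3.89 in control and at -2.10, -2.07, -2.19 and -1.83 in TSN. Here all 4 TSN arrays agreed, and it rose by 1.59 (SE 0.185, adjusted p = 2.8e-07), with 2 control arrays well above background and a value of -0.027 with normexp.

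Its seed relatives were also called higher, miR-148b-3p by 1.54 (adjusted p = 4.1e-08) and miR-152-3p with a fitted change of 1.05 (adjusted p = 5.25e-05). miR-148b-3p had 1 control array well above background. miR-152-3p had none and no lower bound above 1-fold, so its rise has no measured size. miR-101a-3p rose by 0.94 (adjusted p = 6.91e-05), with 1 control array well above background and -0.99 with normexp, and miR-101b-3p was at -0.44 (adjusted p = 0.056). Of the 5 tested members of the liver-enriched list only miR-192-5p was measured on all 8 arrays, so the share of rises is not read here either. The list's summed scaled signal ran from 0.392 to 0.558 in control and from 0.641 to 5.06 in TSN.

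In the lists of the vessel wall, platelets and leukocytes, falls are to be read beside the 34.6% of all tested and 46% of all measured miRNAs that fell. miR-222-3p, which with miR-221-3p restrains growth of endothelium and promotes that of smooth muscle, was at -1.91, -2.33, -1.94 and -2.13 in control and at -3.75, -3.98, -3.95 and -3.76 in TSN. The groups were tight and far apart, and it fell by 1.78 (SE 0.161, limma adjusted p = 6e-09). Its unscaled signal was higher in TSN by 1.78 on the log2 scale, less than the 3.56 by which the 75th percentile differed.

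miR-221-3p, encoded beside it with the same seed, was at -2.09, -2.22, -2.26 and -2.31 in control and at -3.13, -3.05, -3.16 and -3.14 in TSN, and fell by 0.90 (SE 0.18, adjusted p = 2e-04). In the endothelium and smooth muscle list 4 of 6 tested members fell, 1 rose and 1 did not pass. miR-126a-3p, the endothelial miRNA that platelets also carry, fell by 0.81 (adjusted p = 0.000662). miR-126a-5p (-1.27) and miR-145a-5p (0.67) were called with no control array well above background, so neither has a measured size, and each turned direction under some scalings.

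miR-142a-3p, a miRNA of blood cells, was at 0.61, 0.34, 0.33 and 0.60 in control and at -0.57, -1.04, -1.06 and -1.60 in TSN. The groups did not overlap, and it fell by 1.54 (SE 0.281, limma adjusted p = 7.19e-05). Its partner strand miR-142a-5p had a change of 0.24 and did not pass (adjusted p = 0.25). In the leukocyte list 3 of 7 tested members fell and none rose, a share of falls near that of all miRNAs, namely miR-142a-3p, miR-150-5p by 1.18 (adjusted p = 0.000613, 1 control array well above background) and the myeloid miR-223-3p by 0.47 (adjusted p = 0.0266), of which miR-150-5p turned with quantile normalization (0.28) and miR-223-3p with normexp (0.14). In the platelet list 3 of 6 fell and none rose, again near that share, namely miR-126a-3p, miR-21a-5p and miR-223-3p, the first and last of which also stand in another of these lists.

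The call of miR-223-3p was lost when control replicate 1, control replicate 2 or TSN replicate 3 was left out (adjusted p = 0.0707, 0.0585 and 0.088). The summed scaled signal of each of these lists did not overlap between the groups, nor did the values of 60.9% of all measured miRNAs. These sums are not independent, since the platelet list shares miR-223-3p with the leukocyte list and miR-126a-3p with the endothelium and smooth muscle list. It ran from 11.9 to 16.1 in control and from 9.41 to 11.3 in TSN for platelets, from 3.22 to 3.88 and from 1.87 to 2.35 for leukocytes, and from 0.778 to 0.858 and from 0.402 to 0.462 for endothelium and smooth muscle. In the stellate cell and fibrosis list, miR-29a-3p (0.74) and miR-29c-3p (0.77), which repress collagen genes, rose, miR-21a-5p fell by 0.54, and the other 3 tested members did not pass. Over all tested miRNAs 27.9% rose and 34.6% fell. miR-29a-3p stood at -0.11 with quantile normalization and miR-21a-5p at 0.30 with normexp.

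**Figure D4:**
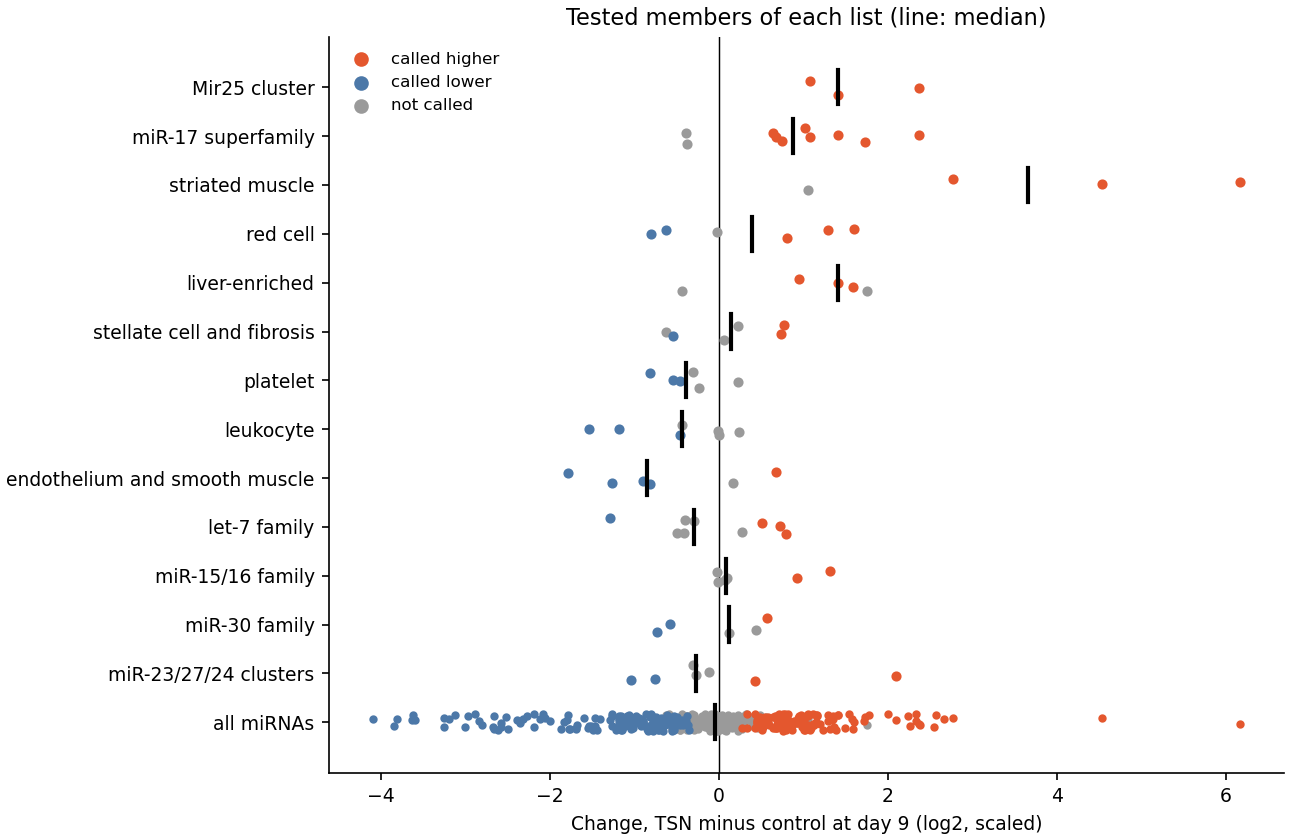
Change at day 9 of every tested member of 13 lists and of all 434 tested miRNAs (x axis, log2; colour gives the call; the line is the median of the list). The median of the miR-17 superfamily lies at 0.88, that of all miRNAs at -0.051 and that of the endothelium and smooth muscle list at -0.86, and the red cell list holds members of both directions.

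Other families held members of both directions. Counts in this and the next paragraph are to be read beside the 27.9% of all tested miRNAs that rose and the 34.6% that fell. Of 9 let-7 members, which restrain growth, let-7d-5p (0.80), let-7i-5p (0.72) and let-7b-5p (0.51) rose, let-7e-5p fell with no control array well above background (0.16 with quantile normalization), and 5 did not pass. The call of let-7b-5p was lost in 8 settings, among them the authors' values (0.27, adjusted p = 0.133), normexp (0.064, adjusted p = 0.779) and the mean of its probes (0.37, adjusted p = 0.0517). In the miR-30 family 1 of 5 rose and 2 fell, miR-30c-5p by 0.57 upward, miR-30d-5p by 0.73 and miR-30e-5p by 0.58 downward. miR-30c-5p stood at -0.64 with normexp and -2.93 with total gene signal, and miR-30e-5p at 0.014 with quantile normalization. In the miR-23/27/24 clusters miR-27a-3p fell by 1.05 (adjusted p = 2.34e-05), while its neighbours miR-23a-3p (0.43) and miR-23a-5p rose, miR-24-2-5p fell and 3 of 7 did not pass. These 3 neighbours, apart from miR-27a-3p, each turned direction under some scalings, and miR-23a-5p and miR-24-2-5p had no control array well above background.

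The miR-181 family had 1 lower member of 4 (miR-181d-5p, -1.12), the miR-130 family 1 higher (miR-130b-3p, 0.59) and 1 lower (miR-301b-3p, -0.50) of 4, and miR-34a-5p, the only tested member of its family, was lower at -0.53 with no control array well above background. Without control replicate 2 miR-34a-5p stood at -0.26 and was not called (adjusted p = 0.0677), nor was it in the authors' values (-0.067, adjusted p = 0.486). miR-301b-3p was not called when any of 5 single arrays was left out. miR-181d-5p turned with quantile normalization (0.37) and in the authors' values (0.078), and miR-301b-3p with quantile normalization (0.70) and total gene signal (3.55). In the brain list 1 of 2 rose (miR-219a-5p, 0.66, no control array well above background), in the gut and kidney epithelium list 1 of 3 rose (miR-203-3p, 0.79) and 1 fell (miR-196b-5p, -0.37), both with no control array well above background, and no pancreas miRNA was tested. These 3 also turned direction under some scalings. Of 19 Dlk1-Dio3 cluster miRNAs 5 were tested, of which miR-494-3p rose by 1.49 and miR-370-3p (-0.54) and miR-300-5p fell. miR-370-3p was not called when control replicate 3, control replicate 4, TSN replicate 1 or TSN replicate 2 was left out (adjusted p = 0.0647 to 0.11), nor in the authors' values (-0.18, adjusted p = 0.444). Of 61 miRNAs of the Sfmbt2 intron families 8 were tested, of which 2 rose and 3 fell.

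Beyond these lists, the highest measured changes without overlap included late entries of the miRNA catalogue with few known functions. miR-6931-5p was at -0.57, -0.95, -0.76 and -0.74 in control and at 1.71, 2.05, 1.11 and 2.75 in TSN, and rose by 2.66 (SE 0.278, limma adjusted p = 5.68e-08), the highest of all measured miRNAs without overlap. miR-6354 rose by 2.24, miR-494-3p by 1.49, miR-7042-5p by 1.09, miR-7036a-5p by 1.07 and miR-6366 by 1.06. miR-3968, miR-762 and miR-1839-5p, with no control array well above background, were at least 1.06-fold, 1.19-fold and 1.38-fold higher, and are named because only 5 miRNAs had such a bound, after their values were seen. All 12 miRNAs with the highest measured changes were also higher without scaling, by 4.62 to 6.22.

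The lowest changes had signals that did not follow the brightness of the TSN arrays. miR-883a-5p was at -1.02, -1.94, -2.28 and -2.37 in control and at -6.17, -5.92, -5.71 and -6.21 in TSN, where the last value is the floor. Unscaled, the same arrays read 58.2, 28.2, 60.1 and 14.2 in control and 23.4, 26.8, 26.7 and 16.8 in TSN, so the groups overlapped before division by the 75th percentile and stood apart after it. The scaled change was -4.10 (SE 0.287, limma adjusted p = 5.65e-10) and the unscaled change -0.58 (adjusted p = 0.258). miR-882 showed the same pattern, at -3.81 scaled and -0.25 unscaled.

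All 12 miRNAs with the lowest measured changes, from -4.10 to -2.67, had an unscaled change between -0.58 and 0.89. Without scaling 10 of them were not called, and miR-7080-3p (-0.54) and miR-3620-3p (-0.51) remained lower. miR-7080-3p had unscaled signals between 24.01 and 26.1 in control and 15.9, 20.2, 17.1 and 16.3 in TSN, which did not overlap. Its TSN arrays were all at the floor after scaling, so the scaled change of -3.85 is set by the floor. The other miRNAs called lower both ways were miR-7022-3p (-0.38 unscaled), miR-7085-3p (-0.33) and miR-7055-3p (-0.25).

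The 8 miRNAs called lower with no TSN array well above background, led by miR-7085-3p, miR-3475-5p, miR-7055-3p, miR-702-3p and miR-7687-3p at least 6.97-fold, 6.405-fold, 6.33-fold, 5.97-fold and 5.98-fold lower against the floor, had unscaled changes between -0.33 and 0. A like pattern appeared among the controls. Control replicate 3, the brightest control array, lay more than 1 log2 unit below the other 3 for 11 tested miRNAs, among them miR-7080-3p, miR-7085-3p, miR-702-3p and miR-7055-3p.

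A block of late catalogue entries is annotated largely as mirtrons, hairpins cut from short introns by splicing. Counts here are to be read beside the 27.9% of all tested miRNAs that rose and the 34.6% that fell. Of 75 tested 5p strands of that block 17 rose, 34 fell and 24 did not pass, with a median change of -0.32. Of 29 measured 5p strands 6 rose and 20 fell, beside 23.6% and 46% of all measured miRNAs. Of 199 3p strands of the block on the array, 6 were tested and only 1 was measured on all 8 arrays. The 6 were all called lower, with a median of -2.73 and a median unscaled change of -0.29, and their share of falls is not read. Over all entries numbered 3000 or higher, 45 of 192 were higher and 80 lower, and over those numbered below 3000, 76 of 242 were higher and 70 lower.

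Strands and sequence gave further description. Matched by name, both strands of 26 hairpins were tested, which leaves out strands named for 1 gene copy, such as miR-30c-2-3p and miR-7a-1-3p. Of the 26, 1 hairpin had both strands higher (miR-23a), 3 had both lower (miR-126a, miR-3620 and miR-7241) and 6 had them opposite (miR-144, miR-486a, miR-17, miR-466i, miR-1897 and miR-7687). These counts are to be read beside the 27.9% of all tested miRNAs that rose and the 34.6% that fell. With quantile normalization miR-17-3p, miR-23a-3p, miR-126a-5p, miR-466i-3p and miR-486a-3p turned direction, and with no scaling miR-23a-5p, miR-1897-3p and miR-7687-5p did. Only 5 hairpins had both strands measured on all 8 arrays, and among these miR-144 was opposite and miR-3620 lower on both. The G and C content of the mature strand had a median of 47.8% in the 34 measured higher miRNAs with a sequence, 50% in 45 that were not called and 58.7% in 66 lower ones. Across the 145 measured miRNAs with a sequence, the change and this content had a Spearman correlation of -0.161, which describes miRNAs read on the same 8 arrays. Over all 369 tested miRNAs with a sequence the medians were 54.55% for higher, 54.55% for not called and 57.14% for lower, and the correlation was -0.058, so little of the gradient was seen there.

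The effect of TSN at day 9 was set against that at days 3 and 21, each against its own control group, by interaction terms of the same fit. The control arrays of days 3 and 9 shared a slide, as did the TSN arrays of days 9 and 21, while the other groups lay on other slides. Against day 3 the effect was higher for 17 miRNAs (3.92%) and lower for 64 (14.7%), and against day 21 it was higher for 54 (12.4%) and lower for 103 (23.7%). miR-106b-5p rose more at day 9 than at either day, by 1.00 over day 3 (limma adjusted p = 0.0104) and 1.32 over day 21 (adjusted p = 0.00103). miR-25-3p had changes of 0.053 at day 3 and -0.36 at day 21, and its day 9 effect was 1.35 and 1.77 higher (adjusted p = 0.00326 and 0.000381). miR-93-5p had changes of -0.057 and -0.19, with differences of 1.13 and 1.27 (adjusted p = 0.00344 and 0.00103). With quantile normalization the differences from day 3 did not pass for miR-25-3p (0.81, adjusted p = 0.103) or miR-93-5p (0.89, adjusted p = 0.0558).

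For the muscle miRNAs the interaction passed against days 3 and 21, with limma adjusted p of 0.000369 and 0.000213 for miR-133b-3p, 0.000819 and 0.000381 for miR-133a-3p, and 0.00344 and 0.000381 for miR-1a-3p. These terms rest on control values that were mostly not well above background, so the difference between the days has no measured size. miR-486a-5p was lower than control at day 3 (-0.63, adjusted p = 0.0172) and higher at day 9, a difference of 1.92 (SE 0.302, adjusted p = 0.000244). miR-15a-5p and miR-15b-5p differed from day 21 by 1.70 and 1.34. The next counts are to be read beside the 3.92% and 12.4% of all tested miRNAs with a higher effect than at days 3 and 21. In the red cell list 3 of 6 tested members had a higher effect than at day 3 and 5 of 6 than at day 21, miR-16-5p among them (1.05 and 1.30), though its own day 9 change did not pass.

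Effects lower than at day 3 were led by miR-26a-5p, which had risen by 1.79 at day 3 and stood at -0.24 at day 9, a difference of -2.03 (SE 0.327, limma adjusted p = 0.000274). miR-142a-3p followed with 0.52 at day 3 and -1.54 at day 9, a difference of -2.05 (adjusted p = 0.000863). miR-6995-5p differed by -1.31 from day 3 and by -1.31 from day 21, and miR-7020-5p by -1.39 from day 3. miR-883a-5p, miR-882 and miR-3099-3p, whose unscaled signal was near flat at day 9, had differences of -2.40, -2.29 and -2.05 from day 21. That of miR-882 did not pass in the authors' values (-0.27, limma adjusted p = 0.0881).

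**Figure D5:**
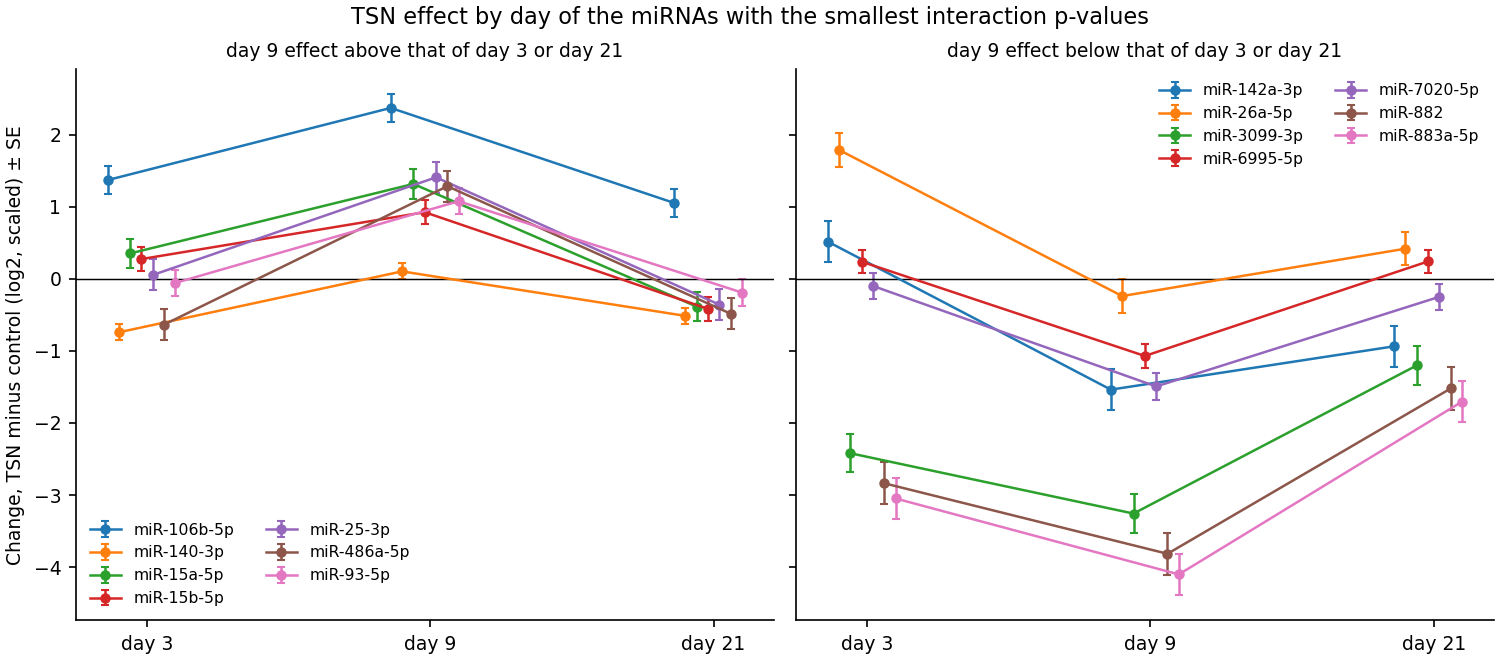
Change of TSN against the control of the same day at days 3, 9 and 21 (log2, scaled; bars are ± the SE of the day 9 change, which all days share in the fit) for the miRNAs with the smallest adjusted p of each interaction term and for miR-106b-5p. On the left all 7 miRNAs have their highest change at day 9, from 0.10 for miR-140-3p to 2.37 for miR-106b-5p, and on the right miR-26a-5p falls from 1.79 at day 3 to -0.24 at day 9.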

How the data were processed

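The deposited values are intensity readings of Agilent one-colour arrays, 1 file per sample, made per the file headers with Feature Extraction 10.7.1.1, which subtracted background and removed a spatial trend without scaling between arrays. Of 58594 spots 56430 were not controls, for 4415 probes of 1881 miRNAs (median 15 spots per probe, no saturated spot: 0). The authors' deposited table holds values that rise with log2 of the signal and are taken as log2; their scaling and centring are not given in the sources used here. Its day 9 columns had medians of 4.37 to 4.40 and each matched its own array best (r 0.955 to 0.972). A genome build of the analysis is not given in the sources used here.

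Here, outlier and control spots were left out, spots of a probe averaged, and the processed signal divided by each array's 75th percentile, taken from the 261 probes that passed background on every one of the 24 arrays. A floor of 0.0135 (-6.21 in log2) was set, and the brightest probe stood for a miRNA. Well above background means a share above 0.5 of its spots. Of the miRNAs above background in a group, 7 lay at the floor on all 24 arrays and were left out. One limma fit (limma 3.58.1, R 4.3.3; prior degrees of freedom 3.02) covered the 6 groups, two-sided, with Benjamini-Hochberg adjustment at 0.05 over 434 miRNAs. Simulated scaled values for 434 miRNAs had normal noise, no floor, equal brightness, and 30 changes of 1 and 30 of 2 (log2). On these the day 9 comparison recovered 83.3% and 100%, with 0 false calls. The run cannot show how many real calls come from the scaling, the floor or the difference in brightness. The number of arrays limits the precision.

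Replicate numbers follow the slide columns, per the labels and headers, and same-numbered day 9 arrays deviated together (r of 0.204, 0.357, 0.236 and 0.224) over tested miRNAs, but less so over measured ones (-0.163, 0.51, 0.327 and 0.0731). A fit with this pairing is in the closing section. The miRNAs described and the 24 lists were chosen with earlier results of these data known. Named were miR-106b-5p, the 12 highest and 12 lowest measured changes without overlap, the 8 largest bounds, those lower with and without scaling, the 4 smallest adjusted p per direction of each interaction, list members and hairpins with both strands called. Alternatives changed the scaling, background correction (normexp, offset 50), spot summary, probe rule, floor, filter, samples in the fit, variance model and pairing, and left out each day 9 array.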

Additional observations from a re-analysis of the deposited data

Results flagged for a closer look

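For 89 named miRNAs 163 sets of 4 day 9 values (scaled log2) that varied, and 12 sets of the array measures, were searched for an array far from the other 3 by Dixon's ratio of its gap to the whole range, and 5 were found, 3 in TSN and 2 in control. The rule marks about 5% of groups by chance. miR-140-3p stood at -0.589 on control replicate 3, miR-466i-5p at -4.03 on control replicate 1, miR-466i-3p at -6.07 on TSN replicate 3, and miR-150-5p and miR-24-2-5p at -4.94 and -6.11 on TSN replicate 4.

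Of the TSN effects that differed between day 9 and another day by the interaction term in limma, the 16 with the smallest adjusted p (4 per direction and day, among miRNAs above background on all arrays of those groups) are given here. Above day 3 were miR-486a-5p (1.92), miR-25-3p (1.35), miR-93-5p (1.13) and miR-140-3p (0.845), the last with changes of -0.74 at day 3 and 0.10 at day 9. Below day 3 were miR-142a-3p (-2.05), miR-26a-5p (-2.03), miR-7020-5p (-1.39) and miR-6995-5p (-1.31). Above day 21 were miR-486a-5p (1.77), miR-25-3p (1.77), miR-15a-5p (1.70) and miR-15b-5p (1.34). Below day 21 were miR-883a-5p (-2.40), miR-882 (-2.29), miR-3099-3p (-2.05) and miR-6995-5p (-1.31). Slides differ between the days, and their part in these differences was not tested. With quantile normalization the terms above day 3 of miR-25-3p (0.81, limma adjusted p = 0.103) and miR-93-5p (0.89, adjusted p = 0.0558) did not pass. Nor did that of miR-140-3p with normexp (0.68, adjusted p = 0.0874), or that of miR-882 in the authors' values (-0.27, adjusted p = 0.0881).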

How the results depend on the processing

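The higher and lower calls of day 9 (121 and 150) became 243 and 29 with the 75th percentile over all probes, 227 and 76 with quantile normalization, 320 and 23 with labelling spike-ins, 391 and 6 with hybridisation spike-ins, 388 and 5 with no scaling, 30 and 365 with normexp, and 248 and 77 in the authors' values. Total gene signal gave 91 lower. No filter on dim miRNAs gave 233 lower of 774 tested, and miRNAs above background on all 8 arrays gave 38 and 75, since fewer were tested. Leaving out 1 array gave 108 to 117 higher and 139 to 158 lower. Effects higher than day 3 (17) became 7 with normexp, and those lower (64) became 25 with quantile normalization, 13 with normexp and 14 in the authors' values. Effects higher than day 21 (54) became 14 with normexp and 96 in the authors' values, and those lower (103) became 57 with quantile normalization, 35 with normexp and 43 in the authors' values. Leaving out 1 array gave 17 to 23 and 49 to 90 against day 3, and 45 to 63 and 79 to 124 against day 21. Without any 1 array the 4 array measures that differed kept their direction, while the ratio of the hybridisation spike-ins ran from 0.975 to 1.01 and that of the local background from 0.974 to 1.05.

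The replicate number as a block, the pairing by slide column, gave 122 and 155 calls, kept 267 of the 271 and lost miR-6934-5p, miR-3077-5p, miR-8110 and miR-301b-3p.

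Single changes were set relative to the shift of the measured miRNAs' median, which was 1.39 for the percentile over all probes, 1.75 for labelling spike-ins, 3.57 for hybridisation spike-ins, 3.56 for no scaling, 0.261 for quantile normalization, -0.392 for normexp, 0.122 for total gene signal and 0.241 for the authors' values. Of 89 named miRNAs 87 were called at day 9, and a turn of direction was counted only for these. Over the 23 settings that gave a value, 62 of the 89 had no such turn, the uncalled miR-140-3p and miR-26a-5p among them. With the direction kept, calls were lost for 32 with no scaling, 32 with hybridisation spike-ins, 17 with total gene signal, 15 in the authors' values, 13 with labelling spike-ins, 12 with quantile normalization, 11 with the percentile over all probes and 8 with normexp. With quantile normalization direction turned for let-7e-5p (0.16), miR-126a-5p (0.40), miR-150-5p (0.28), miR-17-3p (0.60), miR-181d-5p (0.37), miR-23a-3p (-0.31), miR-24-2-5p (0.22), miR-29a-3p (-0.11), miR-301b-3p (0.70), miR-30e-5p (0.014), miR-466i-3p (0.27) and miR-486a-3p (0.27). With normexp it turned for miR-101a-3p (-0.99), miR-145a-5p (-1.98), miR-148a-3p (-0.027), miR-17-5p (-0.76), miR-1897-3p (-1.78), miR-18a-5p (-1.05), miR-203-3p (-1.83), miR-219a-5p (-1.75), miR-21a-5p (0.30), miR-223-3p (0.14), miR-23a-5p (-1.27), miR-30c-5p (-0.64) and miR-7687-5p (-1.53). With hybridisation spike-ins and with no scaling it turned for miR-145a-5p (-1.74 and -1.79), miR-1897-3p (-1.21 and -1.27), miR-203-3p (-1.21 and -1.27), miR-219a-5p (-1.02 and -1.08), miR-23a-5p (-0.32 and -0.38) and miR-7687-5p (-0.56 and -0.61). With the percentile over all probes it turned for miR-145a-5p (-0.54), miR-1897-3p (-0.010) and miR-203-3p (-0.064), and with labelling spike-ins for miR-145a-5p (-0.39). With total gene signal it turned for miR-18a-5p (-1.04), miR-196b-5p (1.19), miR-300-5p (1.19), miR-301b-3p (3.55), miR-30c-5p (-2.93) and miR-466i-3p (0.46), and in the authors' values for miR-181d-5p (0.078) and miR-23a-3p (-0.18). The cause was not tested. Signal over background limits 40 of the higher and 24 of the lower calls, which have no control array well above background, and 8 lower calls with no such TSN array.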
